A study of Mus musculus with 7 samples.

Results

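The genes described here are those of the core circadian clock. They were chosen by name from a list of 10: Clock, its partner Arntl (also called Bmal1), the nuclear receptors Nr1d1 and Nr1d2, the period genes Per1, Per2 and Per3, the cryptochrome genes Cry1 and Cry2, and the output factor Dbp. Of these, 8 were measured among 9294 genes with values, each by 1 probe, and Per3 and Cry2 were not analysed here. None of the 8 probes shared its values on all 7 arrays with another probe. The series compared 2 fat depots of wild-type male mice of the strain given as C57 on Affymetrix microarrays. There were 4 arrays of paracardial fat, the depot next to the heart, and 3 of intra-abdominal fat, with RNA taken from tissue lysed straight after removal, and no animal was treated or altered. The labels give no age, no time of day and no feeding state at collection, and they call the replicates biological without naming the animal of each, so the p-values reflect how far these samples spread.

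In the molecular clock, the proteins CLOCK and BMAL1 pair and bind E-box motifs, where they switch on the Per, Cry, Nr1d1, Nr1d2 and Dbp genes. PER and CRY proteins then inhibit the CLOCK-BMAL1 pair, while the Nr1d1 and Nr1d2 products, known as REV-ERB alpha and beta, repress Arntl and Cry1 through ROR elements, so that Arntl and Nr1d1 cycle out of phase. Fat cells carry this clock, and in fat it is known for timing lipolysis and leptin release over the day.

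The promoters of 5 of the genes are shown. The depot comparison below turns on Clock and Nr1d1. Arntl, Cry1 and Per1 were those with a motif match among the 7 genes that had a promoter window. The sequences come from RefSeq on build GRCm38.p6, run 5′ to 3′ on the strand of the gene, span 300 bases around a transcript start, and carry the matched motif in capitals. RefSeq gave 11 such windows for 7 of the 8 genes, and Per2, which had none, was not searched.
Clock, chr5:76304743-76305042 (- strand): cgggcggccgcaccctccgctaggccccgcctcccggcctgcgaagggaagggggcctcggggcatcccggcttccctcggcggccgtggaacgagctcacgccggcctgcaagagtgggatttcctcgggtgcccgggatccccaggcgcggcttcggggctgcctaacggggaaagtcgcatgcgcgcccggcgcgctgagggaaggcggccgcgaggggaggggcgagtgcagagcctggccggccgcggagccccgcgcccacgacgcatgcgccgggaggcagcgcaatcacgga
Nr1d1, chr11:98775328-98775627 (- strand): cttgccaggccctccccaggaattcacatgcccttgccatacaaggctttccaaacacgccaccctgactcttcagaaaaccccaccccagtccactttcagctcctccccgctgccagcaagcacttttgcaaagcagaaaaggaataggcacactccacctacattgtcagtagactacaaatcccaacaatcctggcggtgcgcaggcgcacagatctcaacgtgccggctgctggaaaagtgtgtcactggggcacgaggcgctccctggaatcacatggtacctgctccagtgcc
Arntl, chr7:113207261-113207560 (+ strand): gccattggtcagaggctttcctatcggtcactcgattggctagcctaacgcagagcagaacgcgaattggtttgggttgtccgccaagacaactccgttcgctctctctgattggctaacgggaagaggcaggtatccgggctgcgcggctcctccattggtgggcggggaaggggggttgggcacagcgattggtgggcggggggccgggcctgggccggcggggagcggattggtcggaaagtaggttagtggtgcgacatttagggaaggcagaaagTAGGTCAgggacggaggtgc
Cry1, chr10:85185005-85185304 (- strand): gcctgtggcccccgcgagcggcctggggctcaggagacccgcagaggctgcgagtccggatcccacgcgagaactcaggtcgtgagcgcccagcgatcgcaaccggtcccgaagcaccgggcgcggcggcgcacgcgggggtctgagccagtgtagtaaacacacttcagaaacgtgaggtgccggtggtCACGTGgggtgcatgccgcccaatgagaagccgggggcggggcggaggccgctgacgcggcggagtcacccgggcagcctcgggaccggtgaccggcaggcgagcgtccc
Per1, chr11:69098699-69098998 (+ strand): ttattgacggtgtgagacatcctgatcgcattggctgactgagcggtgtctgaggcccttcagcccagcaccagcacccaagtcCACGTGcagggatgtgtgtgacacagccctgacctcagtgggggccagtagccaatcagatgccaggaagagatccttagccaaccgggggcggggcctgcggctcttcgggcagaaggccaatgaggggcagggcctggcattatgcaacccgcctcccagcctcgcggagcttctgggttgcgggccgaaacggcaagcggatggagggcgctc
The E-box CACGTG, searched on both strands, lay at base -60 from the start in Cry1 and at -166 in the Per1 window, and the ROR element TAGGTCA at base 31 after the start in Arntl. Of 32851 such windows in the RefSeq table, 7.15% held the E-box and 6.45% held TAGGTCA or TGGGTCA. The D-box TTATGTAA (0.938% of all windows) and the cyclic AMP element TGACGTCA (1.79%) matched in none of the 11 windows. The Clock and Nr1d1 windows above held no match to these letters, and their GC content was 76.3% and 56.3%. A match is a match of letters and was not tested for binding.

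Marker levels of several cell types moved with the depots, and in bulk samples fewer cells of a type and less RNA per cell cannot be told apart. All 9 measured adipocyte markers had negative differences (paracardial minus intra-abdominal), 7 of them past the threshold used throughout, a limma adjusted p under 0.05. Of all 9294 genes, 2.91% passed as lower and 6.25% as higher, while 3666 had negative and 5628 positive differences. The median adipocyte marker level per array was 6.14 to 9.68 in paracardial fat and 14.4 to 16.0 in intra-abdominal fat. Its lowest 2 values, 6.14 and 6.23, were on paracardial arrays 1 and 2. On those arrays the fat cell genes Lep (6.30 and 5.56) and Plin1 (5.91 and 6.26) lay near the median of all probes (6.07 and 6.005), which goes against the fat label there. Other adipocyte markers lay above that median, such as Fabp4 (6.80 and 7.74) and Pnpla2 (6.82 and 6.77), or below it, such as Adipoq (5.18 and 5.53). All 4 endothelial markers had negative differences too (2 past the threshold), with medians of 5.31 to 6.98 and 8.73 to 11.2. All 5 thymocyte markers had positive differences (2 past the threshold), with medians of 12.8 to 16.4 in paracardial fat and 5.55 to 11.9 in intra-abdominal fat, the highest of these on intra-abdominal array 1. Of the T and NK cell markers 2 of 4 passed as higher, and of the cell cycle markers 2 of 2. No marker passed in the brown adipocyte, B cell, macrophage, cardiomyocyte and mesothelial lists.

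Clock and Nr1d1 were lower in paracardial than in intra-abdominal fat, and the other 6 core clock genes did not pass the test. The test was limma over all 9294 genes with Benjamini-Hochberg adjusted p-values at a threshold of 0.05, and a difference below is the paracardial minus the intra-abdominal mean of the deposited log2 values. These are not calibrated folds, since the scale of the deposited values is known only from their range. The 2 of 8 genes called stand beside 9.16% of all genes, the 2 lower beside 2.91% lower, and the 0 higher beside 6.25% higher. At an unadjusted p under 0.05, 4 of the 8 passed (24.4% of all genes), 1 of them (Cry1) with a positive difference. The median difference was -0.45 over the 8 genes and 0.13 over all genes, and the median absolute difference 1.03 against 0.47. The list was built around Clock and Nr1d1 with earlier results of these data known. These shares and medians therefore describe the list and do not test it.

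Clock encodes the transcription factor that acts with BMAL1 as the activator of the loop. In paracardial fat its log2 values were 8.41, 8.86, 8.83 and 8.88 (arrays 1 to 4), and in intra-abdominal fat they were 11.18, 11.54 and 12.73 (arrays 1 to 3). Every paracardial array lay below every intra-abdominal array, with a gap of 2.30 between the nearest arrays, and the paracardial arrays spread over 0.46 against 1.55 in the other depot. The means were 8.74 ± 0.22 (SD, n = 4) and 11.81 ± 0.81 (SD, n = 3), which puts the difference at -3.07 ± 0.39 (SE), with 95% limits of -3.99 and -2.14 (limma adjusted p = 0.0106). Of all genes, 4.94% had a larger absolute difference.

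Nr1d1 encodes REV-ERB alpha, the heme-binding repressor of Arntl that is also known to be induced as fat cells differentiate. Its log2 values were 6.29, 5.94, 7.97 and 6.74 in paracardial fat, in the same order of arrays, and 11.16, 11.78 and 10.88 in intra-abdominal fat. The depots were separated by 2.91 at their nearest arrays, and paracardial array 3 was the highest of its depot. The means were 6.74 ± 0.89 (SD, n = 4) and 11.27 ± 0.46 (SD, n = 3). The difference was -4.54 ± 0.52 (SE), with an interval of -5.77 to -3.31 (limma adjusted p = 0.0087). It was the largest absolute difference among the 8 genes. Signal over background is unknown, and the values on paracardial arrays 1 and 2 lay near the medians of all probes there (6.07 and 6.005), so they are not shown to be above background. Its paralog Nr1d2, which encodes REV-ERB beta, had values between 8.07 and 8.51 on all 7 arrays, with overlapping depots. The Nr1d2 difference was -0.19 with an interval of -0.60 to 0.21 (limma adjusted p = 0.55), which lies apart from the interval of Nr1d1, though the difference between these genes was not tested. In the RefSeq annotation Nr1d1 overlaps Thra, which was not analysed here.

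**Figure D1:**
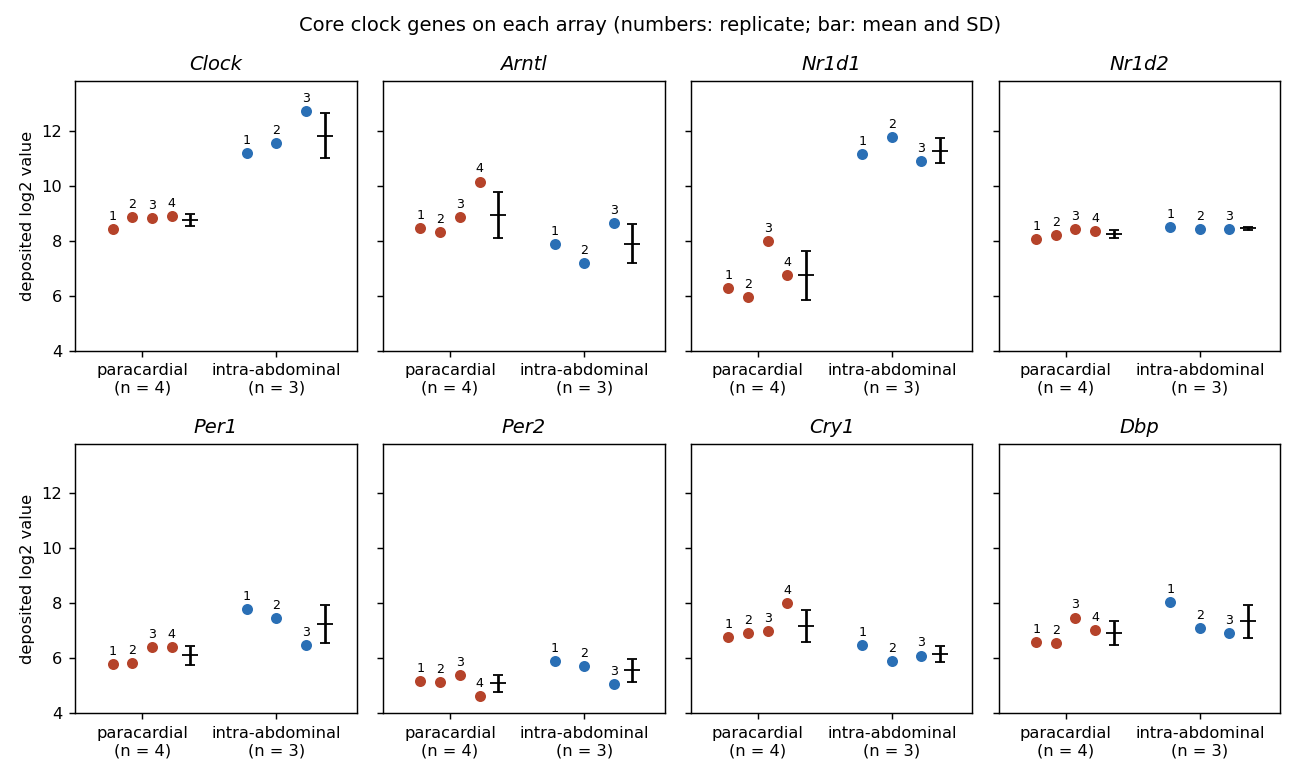
Deposited log2 values (vertical axis) of the 8 core clock genes on each paracardial (red) and intra-abdominal (blue) array, numbered by replicate, with bars for the mean and SD of 4 and 3 arrays. Clock and Nr1d1 separate by 2.30 and 2.91 between their nearest arrays, while Arntl, Nr1d2, Per2 and Dbp overlap.

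Arntl and Cry1 had positive differences that did not pass. Arntl, the partner of Clock and a target of REV-ERB repression, was at 8.44, 8.30, 8.86 and 10.15 on the paracardial arrays and at 7.86, 7.20 and 8.63 on the intra-abdominal arrays. Paracardial array 4 was the highest, and intra-abdominal array 3 lay above paracardial arrays 1 and 2, so the depots overlapped. The difference was 1.04 with an interval of -0.26 to 2.34 (limma adjusted p = 0.31). Cry1, which encodes a repressor of the CLOCK-BMAL1 pair, was at 6.77, 6.92, 6.99 and 8.02 in paracardial fat and at 6.48, 5.90 and 6.10 in intra-abdominal fat. On intra-abdominal arrays 2 and 3 these values lay near the medians of all probes (5.995 and 5.998), so they are not shown to be above background. All paracardial arrays lay above all intra-abdominal arrays, array 4 again being the highest, and the difference was 1.01 with an interval of 0.17 to 1.85 (limma adjusted p = 0.14). Without paracardial array 4, these differences were 0.64 for Arntl and 0.73 for Cry1. The brown fat gene Ucp1 was also highest on that array, at 13.92 against 4.36 to 6.14 on the other 6. So were the median of all probes (6.37) and the medians of the brown adipocyte, thymocyte, T and NK cell, B cell and cell cycle markers. The adipocyte, endothelial and macrophage medians were highest on intra-abdominal array 3. The part of any of these in the Arntl and Cry1 values was not tested.

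Nr1d1 and Arntl, the repressor and its target, were also set against each other within each array, each gene first centred on its own mean over the 7 arrays. The centred Nr1d1 value exceeded that of Arntl by 3.11, 4.39 and 2.06 on the intra-abdominal arrays. On the paracardial arrays the same quantity was -2.35, -2.55, -1.08 and -3.60. The sign was therefore opposite in the depots on every array, which is given as a description and follows mostly from the Nr1d1 values themselves.

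Per1, Per2 and Dbp, which the CLOCK-BMAL1 pair activates, all had negative differences short of the threshold. Of the other measured genes it activates, Nr1d1 was lower, Nr1d2 differed by -0.19, and Cry1 went the other way, by 1.01. Per1, whose protein inhibits that pair, was at 5.78, 5.84, 6.42 and 6.41 in paracardial fat and 7.80, 7.46 and 6.48 in intra-abdominal fat. The depots did not overlap, but paracardial array 3 and intra-abdominal array 3 nearly met. The Per1 values on paracardial arrays 1 and 2 lay below the medians of all probes there (6.07 and 6.005), so they are not shown to be above background. The difference was -1.13 with an interval of -2.01 to -0.26 (limma adjusted p = 0.11). Without intra-abdominal array 3 it was -1.52 and past the threshold (limma adjusted p = 0.031). That was the 1 fit of 7 without 1 array in which Per1 passed, and the others gave limma adjusted p-values from 0.137 to 0.316.

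Per2, the paralog of Per1, was at 5.17, 5.16, 5.40 and 4.65 in paracardial fat and at 5.89, 5.73 and 5.08 in intra-abdominal fat. Its depots overlapped, with intra-abdominal array 3 below 3 of the 4 paracardial arrays, and the difference was -0.47 with an interval of -1.15 to 0.21 (limma adjusted p = 0.38). Every Per2 value lay below the median of all probes on its array, so none is shown to be above background. Dbp, a factor that carries the rhythm to D-box genes, was at 6.60, 6.56, 7.49 and 7.05 in paracardial fat and 8.04, 7.12 and 6.90 in intra-abdominal fat. Its difference was -0.43 with an interval of -1.31 to 0.45 (limma adjusted p = 0.54). Dbp overlaps the gene Sphk2 in the annotation, whose own difference was -0.15 (limma adjusted p = 0.73). The depots did not overlap for 4 of the 8 genes, against 26.7% of all genes, with 3 of these lower (8.78% of all genes) and 1 higher (18% of all genes).

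**Figure D2:**
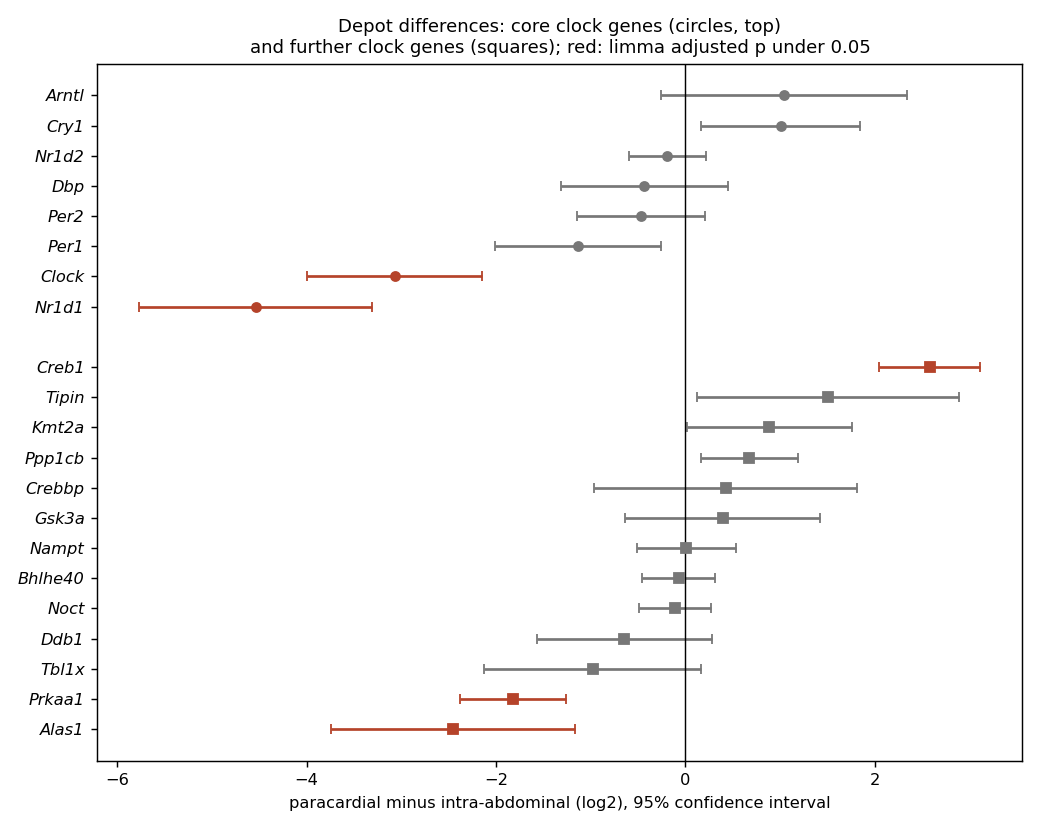
Difference between depots (horizontal axis, paracardial minus intra-abdominal, log2) with 95% confidence intervals for the 8 core clock genes (circles) and 13 further clock genes (squares), red where the limma adjusted p was under 0.05. The intervals of Nr1d1 (-5.77 to -3.31) and Clock (-3.99 to -2.14) lie furthest below 0, and that of Creb1 (2.05 to 3.12) furthest above it.

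A longer list of 59 partners, regulators and outputs of the clock had 13 measured genes, of which 1 was higher and 2 were lower in paracardial fat, again beside 6.25% and 2.91% of all genes. Their median difference was 0.0087, against 0.13 over all genes. None of the 5 partners and paralogs in the list, such as Npas2 and the ROR receptors, was analysed here. Among 5 cofactors, 1 was higher. Creb1 encodes the cyclic AMP responsive factor through which signals from outside the cell induce Per1. Its log2 values were 11.01, 11.11, 10.87 and 10.77 on the paracardial arrays and 8.70, 8.39 and 7.99 on the intra-abdominal arrays, so the depots were far apart relative to the spread within each. The difference was 2.58 ± 0.22 (SE) (limma adjusted p = 0.0067).

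Of 3 kinases and phosphatases, 1 was lower, Prkaa1, a catalytic subunit of the energy sensor AMPK, which marks cryptochromes for degradation. Prkaa1 was at 8.98, 8.86, 9.13 and 9.34 in paracardial fat and at 10.52, 10.98 and 11.21 in intra-abdominal fat. The difference was -1.83 ± 0.24 (SE, limma adjusted p = 0.0108). Its call ended without intra-abdominal array 2 (limma adjusted p = 0.052). Of 4 output and feedback genes, 1 was lower, Alas1, the rate-limiting enzyme of heme synthesis, heme being the ligand of REV-ERB proteins. Alas1 was at 6.91, 6.79, 7.13 and 7.57 in paracardial fat and at 8.74, 9.02 and 10.89 in intra-abdominal fat, where array 3 stood highest.

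The Alas1 difference was -2.45 ± 0.54 (SE) (limma adjusted p = 0.039). It passed in 2 of 7 fits without 1 array, with adjusted p-values of 0.108, 0.103, 0.093 and 0.065 without paracardial arrays 1 to 4 and 0.097 without intra-abdominal array 2. The 1 measured gene of the ubiquitin pathway, Ddb1, an adaptor of ubiquitin ligases, differed by -0.65 (limma adjusted p = 0.38). The 10 genes of the longer list that did not pass had differences from -0.98 to 1.504 and adjusted p-values from 0.108 to 0.99, and Creb1 passed whichever array was left out.

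The calls of Clock and Nr1d1 were also made in all 7 fits that left out 1 array. Their limma adjusted p-values ranged from 0.0042 to 0.044 for Clock and from 0.0117 to 0.041 for Nr1d1, with differences of -3.39 to -2.61 and -4.95 to -4.27. Paracardial array 4 and intra-abdominal array 3 share a higher ceiling of the deposited values (19.93) than the other 5 arrays and are treated here as an array set. The Clock difference was -2.66 within the 5 arrays and -3.85 within the 2, and that of Nr1d1 was -4.74 and -4.14. For Per1 the same values were -1.61 and -0.076, for Cry1 they were 0.70 and 1.92, and for Dbp they were -0.70 and 0.14, the 1 core gene whose sign differed between the sets. With paracardial arrays 1 and 2 left out together, neither Clock (-2.96, limma adjusted p = 0.108) nor Nr1d1 (-3.92, 0.090) passed. Creb1 (2.46, 0.090), Prkaa1 (-1.67, 0.108) and Alas1 (-2.20, 0.228) did not pass in that fit either, which called 1 of all 9294 genes.

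**Figure D3:**
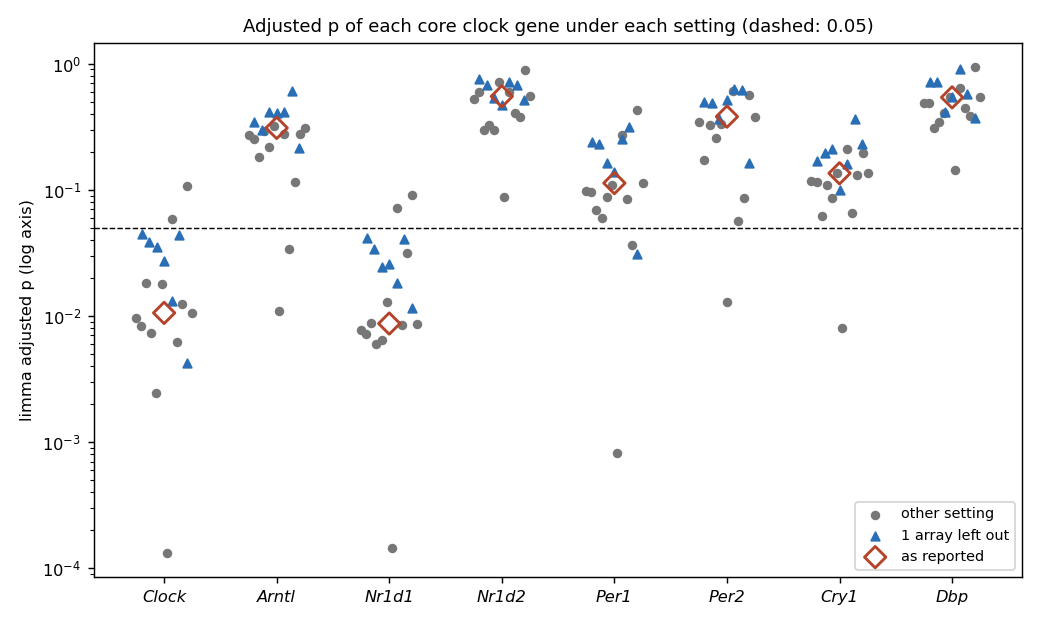
Limma adjusted p (log axis) of each core clock gene as reported (diamonds), in the 7 fits without 1 array (triangles) and in the other settings (circles), with the threshold of 0.05 dashed. All 7 triangles of Clock and of Nr1d1 lie under the line, while Per1 has 1 triangle under it and Arntl, Nr1d2, Per2, Cry1 and Dbp have none.

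Beside the marker lists, the median adipocyte difference of -7.19 was larger in size than that of Clock (-3.07) or Nr1d1 (-4.54). Across the 4 paracardial arrays the adipocyte median ran from 6.14 on array 1 to 9.68 on array 4, while Clock spread over 0.46 and Nr1d1 over 2.03. Clock was likewise lowest on array 1 (8.41) and highest on array 4 (8.88). Nr1d1 was lowest on array 2 (5.94) and highest on array 3 (7.97). On intra-abdominal array 3, where the adipocyte and endothelial medians were highest, Clock was highest (12.73) and Nr1d1 lowest of its depot (10.88). The part of these cell types in the clock gene values was not tested.

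**Figure D4:**
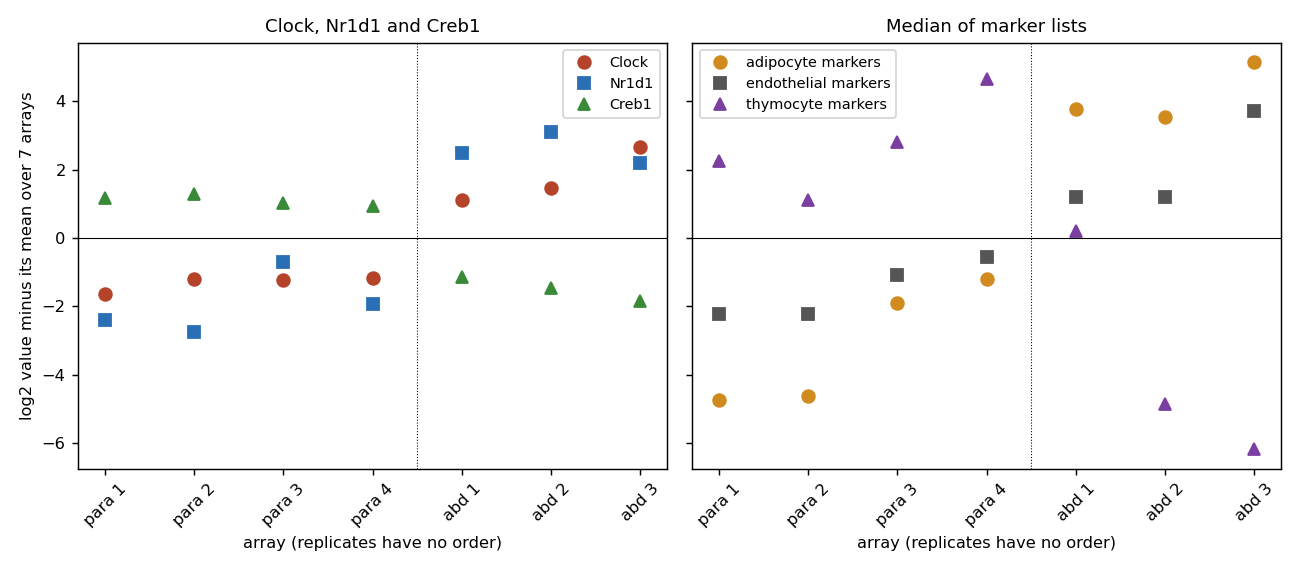
Log2 values minus their mean over the 7 arrays (vertical axis), for Clock, Nr1d1 and Creb1 (left) and for the medians of 9 adipocyte, 4 endothelial and 5 thymocyte markers (right), by array. Clock and Nr1d1 lie below 0 on all 4 paracardial arrays, as the adipocyte and endothelial medians do. Creb1 and the thymocyte median lie above 0 there. On intra-abdominal array 1 they part, with the thymocyte median slightly above 0 and Creb1 below it.

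The genes whose array pattern lay nearest to Clock and Nr1d1 were ranked by the root mean square distance between values centred per gene, over 7 arrays and 5178 other named genes. Nearest to Clock were Heph, a ferroxidase of iron export (0.18), Cd300lg, a receptor of capillary endothelium (0.19), and Eepd1 (0.23), where the median distance was 1.64. These 3 genes differed between depots by -3.03, -3.18 and -3.28, a likeness to the -3.07 of Clock that their choice by distance over the same arrays fixes. Nearest to Nr1d1 were the sulfotransferase gene Chst1 (0.41), Myadm (0.48) and the focal adhesion gene Tns2 (0.48), against a median of 2.38. Their differences were -4.90, -4.23 and -3.81. Of the other core clock genes, the one nearest to Clock was Nr1d1 and the reverse held too, at a distance of 1.10, and the farthest from both was Arntl, at 2.12 from Clock and 2.91 from Nr1d1. These distances largely repeat the depot differences given above and are no separate result.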

How the data were processed

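The authors deposited 1 log2 value per probe and array for 7 arrays and 11949 probes, for which the submitters' processing notes name RMA and Affymetrix Expression Console. Their versions and the build were not given in the sources used here. Scanner values were not used, so signal over background is unknown and the number of arrays limits the precision. Array medians ran from 5.99 to 6.37. All columns were matched to samples by name.

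The platform annotation gave a single gene symbol to 9352 probes, and the probe with the highest mean was kept per gene, leaving 9294 genes. Entrez identifiers of 5789 probes matched RefSeq (GRCm38.p6, for names). No filter on low values was applied, so every measured member was tested. Depots were compared with limma (3.58.1, under R 4.3.3) by lmFit and eBayes (two-sided, 5 residual and 1.68 prior degrees of freedom), over all 7 arrays with no covariate. The method was tested on simulated data. The members, lists, markers and alternatives were chosen with earlier results of these data known.

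The genes named are all measured core clock genes, each gene of the longer list that passed or, in a role where none passed, the one with the largest difference, and the 3 nearest genes to Clock and to Nr1d1, leaving out unnamed gene models, receptors of smell, small RNAs and pseudogenes. Sphk2, Ucp1, Lep, Plin1, Fabp4, Pnpla2 and Adipoq were added for context, after their values were seen. Python 3.11.15 did the rest.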

Additional observations from a re-analysis of the deposited data

Results flagged for a closer look

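The log2 value of Clock on paracardial array 1, 8.41, stood apart from the other 3 arrays of its depot (8.83 to 8.88). The gap to the nearest of them was 0.89 of the whole range, although that range was only 0.46. Without this array the Clock difference was -2.96 (limma adjusted p = 0.044). Gsk3a, which encodes a kinase of clock proteins, stood apart on paracardial array 4, at 11.22 against 9.60 to 9.74 on the other 3 arrays, a gap of 0.92 of the range. These were 2 of 21 measured clock genes examined over the 4 paracardial arrays, and chance flags about 1 group in 20. Gsk3a was named after its values were seen.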

How the results depend on the processing

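The direction of all 8 core clock genes held in each of the 19 alternatives that gave them a value. Per2 gave none when the dimmest 50% of genes were dropped. Taken gene by gene, the differences between depots had a median of 0.13 for the deposited values. Centring each array on its own median moved this value to -0.024, and Clock then differed by -3.23 and Nr1d1 by -4.69. Of the core genes, 2 were lower and 0 higher as reported, and leaving out 1 array gave 2 to 3 lower and 0 higher. Array weights gave 4 lower and 2 higher and called 3614 of all genes. The array set as a block gave 1 higher (Arntl, adjusted p = 0.034). Of the longer list, 2 were lower and 1 higher as reported. Leaving out 1 array gave 0 to 2 lower, the 0 without intra-abdominal array 2, and 1 higher each time. Cyclic loess gave 4 lower, array weights 4 lower and 4 higher, and the 5 arrays of the lower ceiling 2 higher. The fit without paracardial arrays 1 and 2 and the fit with the replicate number as a block each gave 0 for every count. The replicate block called 0 of all genes, with differences of -3.11 for Clock (adjusted p = 0.058) and -4.54 for Nr1d1 (adjusted p = 0.072). Number 4 occurs only in paracardial fat, so that array had no weight in the differences of the block fit. Both differences equal those of the fit without paracardial array 4, and the block left fewer residual degrees of freedom. The labels do not say whether same-numbered samples came from the same animal. Deviations from the depot means correlated at 0.048, 0.047 and -0.50 over the 3 numbers. So few arrays cannot decide whether the numbers pair the samples, and arrays numbered 3 belong to different array sets. The cause of these changes was not tested.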
